A study of Mus musculus with 8 samples.

Results

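The longest reads of the mPGC and D6 mPGCLC small RNA libraries were sequences of 36 to 40 nt and of 43 nt, the upper end of the deposited lengths. Members were all listed sequences of those lengths in the 8 libraries, 110764 of 2137470 distinct sequences, of which 37489 were 36 to 40 nt and 73275 were 43 nt. No read of 41 or 42 nt was listed in any library, so the 43-nt reads were kept apart from the 36 to 40-nt reads. The libraries comprised 2 of D6 mPGCLCs made from SGET embryonic stem cells and 2 of male mPGCs for each embryonic day, E12.5, E13.5 or E15.5. The mPGCs carried the GOF18 reporter, with C57BL/6J as the labelled strain and an FVB/C57BL/6J mixed background in the study's methods. Each mPGC replicate was sorted from 2 pooled embryos, and replicates came from different litters. The labels give sorting on SSEA1 and CD61, and the methods give sorting on EGFP. SGET cells have a B6CBA/129 background and carry Stella-GFP and Esg1-tdTomato reporters, and Stella-GFP-positive, Esg1-tdTomato-negative cells were sorted from embryoid bodies after 6 days. They represent 1 male line, and nothing states that the SGET replicates came from separate cultures, so p-values then measure only the spread between these libraries, which may be technical.

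C/D box snoRNAs are short nuclear RNAs, mostly cut out of introns of host genes, that guide 2′-O-methylation of ribosomal RNA. They begin near a box C motif and end near a box D motif, and both boxes bind the core proteins of the particle. Mature nuclear tRNAs end in CCA, which is added after transcription, and piRNAs of the fetal male germline are shorter than the reads described here and usually begin with U. The libraries were made from gel-cut products of small RNA fractions, so an RNA longer than the read contributes only what was read of it, and less RNA per cell cannot be told apart from fewer contributing cells.

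Total counts ran from 7447873 to 26552524 mapping reads per library, where 3 counts correspond to 4.03e-05% and 1.13e-05% of reads. Among 20 to 24-nt reads, the pluripotency and germ cell miRNA list (Mir290a to Mir295, Mir302a to Mir302d and Mir367) took 3.13% to 6.03% of mapping reads in the 4 E12.5 and E13.5 libraries, 0.314% and 0.244% in E15.5 libraries and 5.75% and 9.13% in SGET libraries. Mir202, a gonadal somatic miRNA, was at 0 in both SGET libraries and reached at most 0.0430% in mPGCs. The blood list (4 of its 5 genes annotated) reached 0.00259%, the vessel miRNA Mir126a 0.00694%, and the mesenchyme pair Mir143 and Mir145a 0.0708%.

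In 7 of 8 libraries, reads of 43 nt came mostly from snoRNAs, and mostly from their 5′ parts. The 10 genes with the highest mean share of 43-nt reads were all annotated as snoRNAs in GENCODE M21, with annotated lengths of 60 to 81 nt. The leading ones are shown whole, with the stretch of the most abundant 43-nt read of the gene in capitals, to show where such a read starts and what it leaves out.
Snord49a: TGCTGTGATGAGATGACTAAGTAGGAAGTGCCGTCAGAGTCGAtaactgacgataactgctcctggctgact
Gm24452: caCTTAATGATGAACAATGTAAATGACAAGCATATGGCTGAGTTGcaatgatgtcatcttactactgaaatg
Snord80: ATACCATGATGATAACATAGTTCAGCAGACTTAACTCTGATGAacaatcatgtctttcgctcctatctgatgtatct
Gm26224: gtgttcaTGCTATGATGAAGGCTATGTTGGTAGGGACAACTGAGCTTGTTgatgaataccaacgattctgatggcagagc
Snord100: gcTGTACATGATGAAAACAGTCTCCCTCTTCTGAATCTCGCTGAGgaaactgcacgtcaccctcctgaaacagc
Gm25789: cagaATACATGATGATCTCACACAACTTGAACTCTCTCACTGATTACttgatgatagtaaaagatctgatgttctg
Snord96a: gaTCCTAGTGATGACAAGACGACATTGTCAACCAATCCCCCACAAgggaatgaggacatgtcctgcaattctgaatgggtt
Gm23212: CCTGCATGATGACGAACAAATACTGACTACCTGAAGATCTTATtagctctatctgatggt
Snord95: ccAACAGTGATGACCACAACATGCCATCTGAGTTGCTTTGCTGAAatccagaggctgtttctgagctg
In all 10 genes the capitals contained TGATGA, the letters of box C, and the last CTGA, the letters of box D, lay after the read. The reads began at base 1 to 8 of the annotated RNA and left 17 to 36 bases uncovered at the 3′ side. On GRCm38, Snord49a lies at chr11:62603450-62603521 on the plus strand within 2410006H16Rik. Gm24452 lies at chr19:8724531-8724602 on the plus strand within Snhg1. The shorter annotated copy of Snord80 lies at chr1:161037604-161037680 on the plus strand, and 4 of the 10 genes (Snord80, Gm26224, Gm25789 and Gm23212) lie within Gas5, a noncoding host gene of snoRNAs. Snord100 (chr10:23785750-23785823, minus strand) lies within Rps12, a ribosomal protein gene. Snord96a (chr11:48802032-48802112) and Snord95 (chr11:48803139-48803206) both lie within Rack1 on the plus strand.

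Reads of 36 to 40 nt were led by sequences without an exact match to a GENCODE transcript. Some of the most abundant are shown, with a terminal CCA or an internal TGATGA in capitals, because sequences with a shared end recur in this class, beside 1 matched sequence, of Gm23212.
CCA end, 37 nt: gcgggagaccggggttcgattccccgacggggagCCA
CCA end, 38 nt: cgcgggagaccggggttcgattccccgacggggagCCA
CCA end, 39 nt: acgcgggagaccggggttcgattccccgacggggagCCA
CCA end, 40 nt: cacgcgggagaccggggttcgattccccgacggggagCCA
TGATGA without match, 40 nt: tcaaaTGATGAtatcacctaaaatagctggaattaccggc
Gm23212, 36 nt: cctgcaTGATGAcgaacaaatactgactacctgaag
The 4 CCA sequences differed only in how far they reached at the 5′ side. Together they took 12.1% and 7.26% of 36 to 40-nt reads in the E12.5 libraries, 9.20% and 8.37% in E13.5 libraries, 2.80% and 8.23% in E15.5 libraries and 5.06% and 11.04% in SGET libraries. The 39-nt CCA sequence was the most abundant 36 to 40-nt sequence at E15.5 and the 38-nt CCA sequence in SGET mPGCLCs. The annotation holds 0 nuclear tRNA genes, so the RNAs behind these sequences were not analysed here.

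The share of mapping reads taken by 43-nt reads differed as much between replicates as between stages. It was 1.83% and 3.68% in the E12.5 libraries, 0.633% and 4.07% in E13.5 libraries, 0.252% and 1.66% in E15.5 libraries and 1.41% and 1.38% in SGET libraries. In each mPGC group replicate 2 was higher than replicate 1, by 2.01 times (E12.5), 6.42 times (E13.5) and 6.61 times (E15.5), and the 2 SGET libraries were close together. The 95% Wilson interval of the first value was 1.82% to 1.84%, so counting error was far smaller than the gap between replicates. PCR copies are counted as reads, so such intervals cover counting error only. The replicate 2 libraries of mPGCs also had more total reads at each stage, and they listed 0 reads beginning with N, against 67, 88 and 109 in the replicate 1 libraries and 113 and 85 in SGET mPGCLCs. The part of these library differences in the shares was not tested.

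For 36 to 40-nt reads the share was 1.17% and 0.754% in the E12.5 libraries, 0.377% and 1.18% in E13.5 libraries, 0.144% and 1.33% in E15.5 libraries and 0.533% and 0.387% in SGET libraries. The 3 mPGC stages overlapped, and both SGET libraries were below both E12.5 libraries. Each single length from 36 to 40 nt held less of every library than 43 nt did, for example 0.218% at 36 nt and 0.137% at 40 nt in E12.5 replicate 2.

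Between groups, no change in these shares could pass the exact test, because 2 libraries against 2 allow no p below 0.33. The mean 43-nt share was 2.76% ± 1.31 (SD, n = 2) for E12.5 mPGCs, 2.35% ± 2.43 for E13.5 mPGCs, 0.958% ± 0.998 for E15.5 mPGCs and 1.40% ± 0.0236 in SGET mPGCLCs. The E13.5 mean was 0.852 ± 0.970 times the E12.5 mean (exact permutation test, two-sided, p = 1), and the E15.5 mean was 0.408 ± 0.598 times the E13.5 mean (exact p = 0.67). The E15.5 libraries were both below the E12.5 libraries, at 0.348 ± 0.398 times their mean, and so were the SGET libraries, at 0.506 ± 0.241 times (exact p = 0.33 for each, the smallest that 2 libraries against 2 allow). For 36 to 40-nt reads the ratio to E12.5 was 0.810 ± 0.642 for E13.5 mPGCs, 0.766 ± 0.903 for E15.5 mPGCs and 0.478 ± 0.182 in SGET mPGCLCs, with exact p = 1, 1 and 0.33. From E13.5 to E15.5 it was 0.946 ± 1.28 (exact p = 1). Since the mPGC libraries split by replicate number in depth and in reads beginning with N, ratios were also taken between same-numbered libraries, a comparison added after seeing the data. For 36 to 40-nt reads, E15.5 over E12.5 was 0.123 in replicate 1 and 1.77 in replicate 2, E13.5 over E12.5 was 0.322 and 1.57, and E15.5 over E13.5 was 0.382 and 1.13, so the numbers went in opposite directions. For 43-nt reads, E13.5 over E12.5 was 0.346 and 1.10, while E15.5 was lower in both numbers, at 0.138 and 0.452 times E12.5 and 0.398 and 0.409 times E13.5.

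The E15.5 ratios depended on what the long reads were divided by. Reads of 26 to 29 nt, the size of piRNAs, took 63.3% and 64.4% of mapping reads at E15.5, against 4.02% to 11.6% in the other 6 libraries. With reads outside 26 to 29 nt as the denominator, chosen after seeing the data, the 36 to 40-nt ratio at E15.5 was 2.05 to E12.5 and 2.37 to E13.5, and the 43-nt ratio was 0.927 and 1.01. The direction of 3 of these 4 ratios thereby turned. Single libraries turned ratios as well. Without E15.5 replicate 1 the 36 to 40-nt ratio at E15.5 was 1.38 to E12.5 and 1.71 to E13.5, and without E13.5 replicate 2 the E15.5 to E13.5 ratio was 1.96 at 36 to 40 nt and 1.51 at 43 nt. The ratio of E13.5 to E12.5 was 1.23 at 36 to 40 nt and 1.48 at 43 nt without E13.5 replicate 1, 1.03 at 36 to 40 nt without E12.5 replicate 1, and 1.28 at 43 nt without E12.5 replicate 2. The SGET ratios to E12.5 stayed below 1 under every alternative tried.

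All reads were sorted into 108 classes of length (15 to 43 nt) and 5′ base and tested together with edgeR's quasi-likelihood test, and 24 of the classes were long. At E15.5 against E12.5, 3 long classes fell, the 43-nt reads with 5′-A, 5′-C and 5′-G, where 39.8% of all classes fell and 20.4% rose. Reads of 43 nt with 5′-A stood at 4825 and 9654 CPM (counts scaled to all mapping reads) at E12.5 and 522 and 3394 CPM at E15.5, a log2 change of -1.89 ± 0.64 (SE, adjusted p = 0.0105). The 5′-C class changed by -1.85 ± 0.66 (adjusted p = 0.0143) and the 5′-G class by -1.55 ± 0.64 (adjusted p = 0.0347) on the log2 scale. The 5′-U class did not pass, with 5712 and 12071 CPM at E12.5, 992 and 7204 CPM at E15.5 and a log2 difference of -1.12 ± 0.62 (adjusted p = 0.130), so its groups overlapped. Whether it differed from the other bases was not tested. At E15.5 against E13.5, 2 long classes fell, the 43-nt 5′-A (log2 change -1.56 ± 0.63, adjusted p = 0.0319) and 5′-C reads (-1.58 ± 0.65, adjusted p = 0.0348), where 38.9% of classes fell and 20.4% rose. No long class rose in either comparison. These calls were lost with TMM normalization and with DESeq2, which left 0 long classes lower in both. Without E15.5 replicate 2 the counts of lower classes were 14 against E12.5 and 13 against E13.5, and without E15.5 replicate 1 both were 0. Without E12.5 replicate 2 and without E13.5 replicate 2, respectively, they were also 0. With the replicate number as a block, 4 long classes were lower in each comparison.

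At E13.5 against E12.5, 0 of 24 long classes were called in either direction, where 4.63% of all classes rose and 0% fell. In SGET mPGCLCs against E12.5, 0 of 24 were called, where 0% of all classes rose and 0% fell. In both comparisons 0 of the 24 had an unadjusted edgeR p under 0.05, and DESeq2 called 0. All 24 log2 differences of SGET mPGCLCs lay below 0, from -1.96 to -0.48.

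Most long sequences were seen in a single library, but a small shared set carried most 43-nt reads. Distinct 43-nt sequences numbered 11322 and 18965 in the E12.5 libraries, 6400 and 24241 in E13.5 libraries, 8002 and 19807 in E15.5 libraries and 8830 and 8619 in SGET libraries. Distinct 36 to 40-nt sequences numbered 5394 and 7263, 2508 and 9600, 5205 and 8722, and 3240 and 2184 in the same order. Distinct numbers depend on depth. In draws with replacement to the depth of the shallowest library, 8454, 11752, 3836, 13277, 4143, 7845, 5840 and 5749 distinct 43-nt sequences were expected in that order. Such draws miss rare sequences. The shallowest library itself, E12.5 replicate 1, went from 11322 to 8454, so these values are not exact corrections for depth. Of all distinct 43-nt sequences 81.1% were found in 1 library, and of 36 to 40-nt sequences 90.3%. The 566 of 43 nt found in all 8 libraries took 80.6% and 89.1% of 43-nt reads in the E12.5 libraries, 83.4% and 87.5% in E13.5 libraries, 69.1% and 46.5% in E15.5 libraries and 83.5% and 86.3% in SGET libraries. E15.5 was lower than the other 6 libraries. The 74 of 36 to 40 nt found in all libraries took 22.5% to 33.8% of that class outside E15.5, and 11.4% and 14.6% at E15.5.

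Exact sense matches split the 2 length classes. Of 43-nt reads, 68.5% and 77.8% matched a GENCODE transcript in the E12.5 libraries, 69.3% and 68.9% in E13.5 libraries, 61.3% and 34.5% in E15.5 libraries and 70.2% and 76.6% in SGET libraries. Of 36 to 40-nt reads, 28.2% and 33.8% matched in the E12.5 libraries, 34.7% and 33.1% in E13.5 libraries, 13.53% and 12.9% in E15.5 libraries and 33.4% and 29.2% in SGET libraries. Both E15.5 libraries were below the other 6 in both classes. Counted by distinct sequences, 13.6% to 27.8% of 43-nt sequences matched, so the match rate of reads rested on abundant sequences.

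Sorted by annotated biotype, snoRNAs took 60.6% and 71.4% of 43-nt reads in the E12.5 libraries, 61.8% and 62.5% in E13.5 libraries, 55.8% and 27.2% in E15.5 libraries and 64.7% and 70.3% in SGET libraries. E15.5 replicate 2 stood apart, and the other 7 libraries lay between 55.8% and 71.4%. Protein-coding genes, counted over all their annotated transcripts, took 2.66% to 5.66% and genes of biotype snRNA 0.210% to 0.484% of 43-nt reads. Among 36 to 40-nt reads, snoRNAs took 7.42% and 13.2% in the E12.5 libraries, 13.3% and 12.7% in E13.5 libraries, 4.05% and 3.59% in E15.5 libraries and 11.9% and 11.7% in SGET libraries. Protein-coding transcripts took 13.8% and 10.7% in the E12.5 libraries, 12.7% and 11.2% in E13.5 libraries, 4.61% and 3.69% in E15.5 libraries and 6.12% and 6.17% in SGET libraries, so the E12.5 and E13.5 libraries did not overlap the other 4. Matches to the opposite strand alone were 5.02% and 4.86% of 36 to 40-nt reads at E15.5 and 1.18% to 2.71% elsewhere, and 1.12% and 1.92% of 43-nt reads at E15.5 against 0.178% to 0.286% elsewhere.

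Among single snoRNAs, Snord49a had the highest mean share of 43-nt reads. It took 4.06% and 4.66% of 43-nt reads in the E12.5 libraries, 3.81% and 4.31% in E13.5 libraries, 4.31% and 1.71% in E15.5 libraries and 7.57% and 7.77% in SGET libraries. The SGET libraries lay above all 6 mPGC libraries, as they did for Snord96a, with 3.28% and 3.32% in SGET mPGCLCs and 0.475% to 2.24% in mPGCs. The same order held for Snord80, with 4.63% and 4.16% against 1.003% to 3.90%, and Snord95, with 3.04% and 2.35% against 1.15% to 2.12%, so for 4 of the 10 genes. How many of all genes with 43-nt reads had this order was not counted, so the 4 cannot be set against a background. In CPM of long reads, Snord49a stood at 1069 and 1072 in SGET libraries and at 745 and 1718 in E12.5 libraries. None of these 4 genes passed the edgeR test on CPM between SGET mPGCLCs and E12.5 mPGCs. The log2 difference was -0.20 ± 1.45 (SE, adjusted p = 0.997) for Snord49a and -0.20 ± 1.37 (adjusted p = 0.997) for Snord96a. For Snord80 it was -0.74 ± 1.42 (adjusted p = 0.867), and for Snord95 -0.39 ± 1.37 (adjusted p = 0.939). A single sequence made up 97.6% of the 43-nt reads of Snord49a, and it was the most abundant 43-nt sequence by mean share in all 4 groups. Gm24452 took 4.78% and 6.18% in the E12.5 libraries, 4.51% and 5.53% in E13.5 libraries, 3.81% and 1.38% in E15.5 libraries and 3.70% and 3.85% in SGET libraries. Its leading sequence made up 56.8% of its 43-nt reads. The other leading genes lay between 0.475% and 4.87% in every library, and the 10 together took 25.4% to 35.9% of 43-nt reads in 7 libraries and 13.1% in E15.5 replicate 2. Gm26202, within Rpl17, took 1.43% to 3.74%.

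Named C/D snoRNAs (Snord) took 26.4% to 35.9% of 43-nt reads in 7 libraries and 12.1% in E15.5 replicate 2, and other snoRNA genes, known by identifiers such as Gm24452, took 28.5% to 39.9% and 15.3%. H/ACA snoRNAs (Snora), which guide pseudouridylation and are longer, took at most 0.457% of 43-nt reads, and Cajal body RNAs (Scarna) at most 0.0175%. Both families were taken by symbol, so such genes with other symbols are left out. By biotype, scaRNA genes took at most 0.0350% of 43-nt reads and 0.769% of 36 to 40-nt reads. Ribosomal protein genes took 1.13% to 3.31%, and genes of biotype snRNA or with a symbol beginning with Rnu 0.211% to 0.813%. The latter include genes of other biotypes, since biotype snRNA alone took at most 0.484%. The Y RNAs Rny1 and Rny3 were more frequent in the shorter class, with 0.265% to 1.57% of 36 to 40-nt reads and 0.0347% to 0.199% of 43-nt reads. Mitochondrial rRNAs took 1.48% and 1.32% of 36 to 40-nt reads in SGET mPGCLCs and 0.00764% to 0.532% in mPGCs, without overlap. How many of the other families were without overlap was not counted. Rn7sk, Rpph1 and Vaultrc5 each took at most 0.0224% of either class, Rmrp at most 1.12% and Terc at most 0.000598%, and the 7SL genes Rn7s1 and Rn7s2 had 0 reads assigned to 1 gene, a count that leaves out reads matching both. Histone genes took at most 0.226%, mitochondrial tRNAs 0.970%, mitochondrial mRNAs 0.396% and nuclear rRNA genes with uniquely assigned reads 0.158% of 36 to 40-nt reads. With reads that match several rRNA genes included, nuclear rRNA took 0.0676% to 1.95% of that class.

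Of the 10 leading genes of matched 36 to 40-nt reads, none took more than 3.49% of the class in any library. The first was Gm42418, annotated as a lincRNA at chr17:39846958-39848788 (GRCm38, plus strand), with 0.450% to 3.49%. No rRNA precursor sequence was matched, so whether reads of Gm42418 or of Lars2, another of the 10, come from rRNA was not tested. Of the 10, 5 were snoRNAs (Gm23212, Snord21, Gm23130, Gm26224 and Snord82). Gm23212 took 2.12% and 2.22% in the E12.5 libraries, 2.52% and 1.98% in E13.5 libraries, 0.168% and 0.192% in E15.5 libraries and 1.12% and 0.968% in SGET libraries. The E15.5 libraries were below, and the E12.5 and E13.5 libraries above, both SGET libraries. The others were Rny3, Lars2, which encodes the mitochondrial leucyl-tRNA synthetase, Rmrp, the RNA of RNase MRP, and the noncoding 1110038B12Rik, with medians of 0.457% to 0.558%. The 10 genes together took 2.60% to 11.9% of 36 to 40-nt reads.

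A larger share of long reads began with U at E15.5 than elsewhere. Over all mapping reads this did not hold at 43 nt, where 5′-U reads stood at 992 and 7204 CPM at E15.5 and 5712 and 12071 CPM at E12.5. In 36 to 40-nt reads 5′-U made up 25.2% and 31.5% in the E12.5 libraries, 33.6% and 34.1% in E13.5 libraries, 52.5% and 47.1% in E15.5 libraries and 28.8% and 32.9% in SGET libraries. In 43-nt reads it made up 31.2% and 32.8% in the E12.5 libraries, 32.5% and 33.2% in E13.5 libraries, 39.4% and 43.3% in E15.5 libraries and 35.1% and 35.4% in SGET libraries. In both classes the E15.5 libraries lay above all others (a description over 2 libraries per group, with no test). Of 43-nt reads without an exact match, 43.2% and 45.3% began with U at E15.5 and 21.04% to 30.3% elsewhere, while the 5′-U share of matched 43-nt reads was 35.6% to 39.5% over all 8 libraries. Of 36 to 40-nt reads without a match, 53.8% and 48.6% began with U at E15.5 and 25.7% to 35.9% elsewhere. The 5′-U share of matched 36 to 40-nt reads was 23.7% to 44.5% over all 8 libraries, a wider range than at 43 nt. For comparison, 26 to 29-nt reads began with U in 78.8% and 79.1% of cases at E15.5, 66.5% and 68.2% in E13.5 libraries and 27.8% to 35.3% at E12.5 and in SGET mPGCLCs. The first 26 bases of distinct unmatched 5′-U sequences of 36 to 40 nt started a 26 to 29-nt sequence of the same library in 20.3% and 14.1% of cases at E15.5 and 13.1% to 20.04% elsewhere. For 43 nt these values were 17.6% and 9.07% at E15.5 and 7.08% to 15.2% elsewhere, and the groups overlapped in both classes.

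The position in the parent RNA also differed between the classes. Of 43-nt reads in snoRNAs, 71.6% to 74.1% started within 2 nt of the annotated 5′ end in the 8 libraries, and 0.0943% to 0.359% ended within 2 nt of the 3′ end. Of 36 to 40-nt reads in snoRNAs, 40% to 53.1% started at the 5′ end and 13.2% to 21.1% ended at the 3′ end. Reads of 43 nt had reached the longest listed length, so those from the 5′ end of a longer RNA could not reach its 3′ end. The 3′ values of this class are thus partly set by its definition. TGATGA within the first 15 bases, read on the sense strand, was found in 62.3% and 71.4% of 43-nt reads in the E12.5 libraries, 63.8% and 62.9% in E13.5 libraries, 55.2% and 28.8% in E15.5 libraries and 69.7% and 74.2% in SGET libraries. In 20 to 33-nt reads of the same libraries it was found in 0.682% to 2.46%. Of 43-nt reads without an exact match, 6.40% to 39.9% still held it. A terminal CCA was found in 25.0% and 14.4% of 36 to 40-nt reads in the E12.5 libraries, 18.4% and 16.7% in E13.5 libraries, 7.09% and 11.9% in E15.5 libraries and 7.26% and 14.6% in SGET libraries, against 1.996% to 9.37% of 20 to 33-nt reads and 0.377% to 1.22% of 43-nt reads. In every library it was more frequent at 36 to 40 nt than at 20 to 33 nt or 43 nt. Ends were shared with 31 to 35-nt reads as well, since the last 31 bases of 12.4% to 44.4% of 36 to 40-nt reads ended such a sequence, and those of 0.983% to 7.95% of 43-nt reads.

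The letters that follow a 40-nt read in its RNA differed from those that follow a 36-nt read. The authors removed an adapter that begins with TGG and then the 4 random bases before it, so the bases 5 to 7 after the end of each exactly matched read were compared with TGG. Of distinct matched sequences, TGG stood there in 1.04% to 3.10% at 36 nt, 1.05% to 6.25% at 37 nt, 5.26% to 7.81% at 38 nt, 4.88% to 26% at 39 nt and 23.1% to 36.7% at 40 nt. By library the 40-nt values were 26.7% and 24.8% in the E12.5 libraries, 36.7% and 23.1% in E13.5 libraries, 25% and 32.03% in E15.5 libraries and 29.4% and 36.4% in SGET libraries. The groups overlapped, and every library was higher at 40 nt than at 36 nt. The 4 most abundant 40-nt sequences of small RNA genes with TGG at this place are shown with the 7 bases that follow the read in the annotated RNA, TGG in capitals.
Gm23130: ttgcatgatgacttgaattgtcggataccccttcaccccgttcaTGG
Gm26330: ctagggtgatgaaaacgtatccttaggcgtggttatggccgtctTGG
Gm22884: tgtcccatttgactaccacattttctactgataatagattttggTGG
Snord88a: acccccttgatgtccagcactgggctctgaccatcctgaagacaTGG
The first read was counted 4492 times over the 8 libraries, the next 862 and 587 times and the last 251 times. Gm23130 lies at chr10:23786470-23786543 on the minus strand within Rps12, Gm26330 at chr4:117155186-117155289 on the minus strand, Gm22884 at chr11:55482694-55482833 on the plus strand, and Snord88a at chr7:44250135-44250224 on the plus strand, all on GRCm38.

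At the 3′ end of 43-nt reads the agreement with the transcript was lowest at the last base. Among 43-nt reads whose first 36 bases matched, the base at position 37 agreed in 99.3% to 99.9%, that at position 42 in 88.6% to 99.2% and that at position 43 in 80.9% to 98.8% over the 8 libraries. The lowest value was that of E15.5 replicate 2, and the other 7 lay between 94.4% and 98.8%. Among reads of 38 nt whose first 36 bases matched, the last base agreed in 69.3% to 95.4%, and among those of 40 nt in 73.3% to 95.2%. A drop at the last base was thus not particular to 43 nt. In each library between 2 and 88 groups of 43-nt sequences shared their first 42 bases and ended in each of the 4 bases. They held 2.05% to 38.1% of 43-nt reads, and 84.2% to 95.1% of those reads carried the leading last base. When only the first 36 bases were matched, the matched share of 43-nt reads at E15.5 was 67.3% and 46.9%, against 61.3% and 34.5% for whole sequences.

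Between groups, long reads were also counted per gene, over 507 genes that passed the filter on low counts among 6345 with any uniquely assigned long read. At E13.5 against E12.5, edgeR called 0 genes, with 0% of genes higher and 0% lower and 39 at an unadjusted p under 0.05, while DESeq2 called 2 higher and 0 lower. At E15.5 against E13.5, edgeR called 0 genes (0% in each direction), with 129 at an unadjusted p under 0.05, and DESeq2 called 3 higher and 2 lower. Without E15.5 replicate 1, edgeR called 8 higher in that comparison. At E15.5 against E12.5, 2 genes rose and 0 fell (0.394% and 0%), and in SGET mPGCLCs against E12.5 mPGCs 1 gene rose and 0 fell (0.197% and 0%). At an unadjusted p under 0.05 there were 185 genes in the former and 64 in the latter. DESeq2 called 11 higher and 2 lower in the former and 13 higher and 10 lower in the latter. With the replicate number as a block, edgeR called 5 genes higher and 79 lower at E15.5 against E12.5 and 2 higher and 9 lower at E15.5 against E13.5, so the counts of 0 lower genes depended on the fit. Reads per gene were divided by all mapping reads, and the median log2 difference over the 507 genes was -0.33 at E13.5 against E12.5, -3.65 at E15.5 against E12.5, -3.05 at E15.5 against E13.5 and -1.32 in SGET mPGCLCs against E12.5.

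The called gene with the larger fold at E15.5 was Gm42427 (TEC, chr5:44137980-44143271, GRCm38), a locus without an assigned product. It had 0 and 1 long reads in the E12.5 libraries, 0 and 22 in E13.5 libraries, 36 and 2551 in E15.5 libraries and 0 in both SGET libraries. Its E15.5 level stood above the other groups, with most reads in replicate 2, where 14 distinct sequences carried them. The pooled ratio of E15.5 to E12.5 was 1357, with an exact counting interval of 243 to 53618 that rests on 1 read (edgeR adjusted p = 0.00190). Gm42427 passed the filter on low counts mainly through E15.5, where it is high, so this p-value gives no separate support. D10Wsu102e (chr10:83360221-83488505), a protein-coding gene, had 0 and 16 long reads in the E12.5 libraries, 17 and 848 in E13.5 libraries, 179 and 3395 in E15.5 libraries and 0 and 21 in SGET libraries. Its log2 change at E15.5 against E12.5 was 6.81 ± 1.70 (SE, edgeR adjusted p = 0.0163). The E15.5 values were 13.2 and 128 CPM, and E13.5 replicate 2, at 42.97 CPM, lay between them. Of its long reads 88.2% and 70.3% began with U at E13.5, against 68.2% and 46.9% at E15.5. Among E15.5 reads of Gm42427 the share was 50% in replicate 1 and 0.392% in replicate 2. Leaving out either E12.5 library or E15.5 replicate 2 left 0 genes called in this comparison, and leaving out E15.5 replicate 1 left 7.

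In SGET mPGCLCs the gene called was Gm26083, a small Cajal body RNA gene at chr11:117077243-117077435 on the plus strand of GRCm38, within Snhg20. It had 420 and 101 long reads in SGET mPGCLCs and 0 in all 6 mPGC libraries, and 419 and 99 of them were 36 to 40 nt. In CPM it stood at 41.1 and 10.6 in the SGET libraries, from 5 and 3 distinct sequences. Pooled over both SGET libraries, it was at least 185-fold above a floor of 3 counts over the E12.5 group (edgeR adjusted p = 0.00721). That fold is of pooled reads and does not describe each library. With 0 reads in mPGCs, the gene passed the filter on low counts only through SGET mPGCLCs, so this p-value gives no separate support. The call was lost when any of the 4 libraries compared was left out and with TMM normalization.

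None of these 3 genes was annotated as a snoRNA, a snRNA or a ribosomal protein gene. Of 72 Snord genes tested, 0 passed with edgeR in any comparison, and 0, 15, 22 and 5 had an unadjusted p under 0.05 at E13.5 against E12.5, E15.5 against E13.5, E15.5 against E12.5 and SGET mPGCLCs against E12.5, beside 39, 129, 185 and 64 of all 507 genes. Their median log2 differences were -0.21, -2.40, -2.55 and -0.93 in the same order, beside the medians of all genes given above. Of 88 other snoRNA genes 0 passed, with medians of -0.32, -2.54, -2.82 and -0.72. Of 36 ribosomal protein genes 0 passed, with medians of -0.29, -4.53, -5.14 and -2.37. DESeq2, whose size factors come from the long reads of genes alone, called 4 Snord genes higher and 3 lower in SGET mPGCLCs, 6 and 2 of the other snoRNA genes, and 0 and 3 ribosomal protein genes, with 1 mitochondrial rRNA gene and 1 mitochondrial tRNA gene higher, beside 13 higher and 10 lower of all 507 genes. At E15.5 against E12.5 it called 1 Snord gene, 2 other snoRNA genes and 1 Snora gene higher and 0 lower, beside 11 higher and 2 lower of all 507. No gene of the other families was called by edgeR in any comparison.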

How the data were processed

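Small RNA libraries of male mPGCs and SGET D6 mPGCLCs, 2 per group, were analysed. The authors used cutadapt 3.2 to remove the adapter and 4 random bases at each end, then STAR 2.5.3a against GRCm38, with 2 mismatches allowed and each multimapping read put at 1 random place. For every distinct sequence they deposited its unnormalized read counts. The random bases were not used as molecular identifiers, and libraries were run on HiSeq and NovaSeq instruments without an assignment given in the sources used here. Total counts were 7447873 to 26552524.

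Sequences of 36 to 40 nt and 43 nt were matched exactly to GENCODE M21 transcripts in Python 3.11.15. They were assigned in a fixed order of gene biotypes from mitochondrial rRNA to pseudogenes. Sequences that match several genes of their biotype (0.742% to 5.02% of reads) were left out of gene counts. Sequences with N were not matched. For shares, the exact permutation test was two-sided. The quasi-likelihood test of edgeR 4.0.16 (R 4.3.3) was applied to classes and gene counts (1 fit over all groups, total mapping reads as library size, filterByExpr, Benjamini-Hochberg adjustment), with DESeq2 1.42.0 as an alternative. Both were tested on simulated data without a shift between replicates, so that check does not cover the replicate differences seen here. The standard error of a log2 change is that implied by the F statistic.

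Named were the 10 genes with the highest mean share of each length class, up to 5 called genes per direction and comparison with the largest change, and the most abundant sequences. The other printed sequences and the 40-nt examples were chosen after their values were seen. The members and lists were chosen with earlier results of these data known. Replicate numbers come from the sample titles. The methods give different litters for mPGC replicates and nothing of the kind for SGET replicates. Alternatives to denominator, unit, normalization, test, filter, matching and replicates were tried, and ratios between same-numbered libraries were added after seeing the data. Genome positions of unmatched reads, and nuclear tRNA sequences, were not analysed here. An abundant 36 to 40-nt sequence is not reported here.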

Additional observations from a re-analysis of the deposited data

How the results depend on the processing

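The share ratios changed direction in 16 cases. Leaving out 1 library gave a 36 to 40-nt ratio of 0.392 to 1.23 for E13.5 over E12.5, 0.185 to 1.96 for E15.5 over E13.5 and 0.150 to 1.38 for E15.5 over E12.5, and a 43-nt ratio of 0.230 to 1.48 for E13.5 over E12.5 and 0.107 to 1.51 for E15.5 over E13.5. Without the 10 most abundant sequences the 36 to 40-nt ratio of E15.5 over E13.5 was 1.03. With reads outside 26 to 29 nt as denominator, chosen after seeing the data, this ratio was 2.37, that of E15.5 over E12.5 was 2.05 and the 43-nt ratio of E15.5 over E13.5 was 1.01. Between libraries numbered 2 only, also added after seeing the data, the 36 to 40-nt ratio was 1.57 for E13.5 over E12.5, 1.13 for E15.5 over E13.5 and 1.77 for E15.5 over E12.5, and the 43-nt ratio of E13.5 over E12.5 was 1.10. Whether these changes have a shared cause was not tested.

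Long classes lower at E15.5 numbered 2 against E13.5 and 3 against E12.5. Both counts were 0 with TMM normalization, with DESeq2 and with only the 2 groups compared, and ranged from 0 to 13 and from 0 to 14 when 1 library was left out. With the replicate block, they were 4 and 4. TMM normalization called 1 long class higher against E13.5, DESeq2 called 1 higher against E12.5, and the fit of 2 groups called 2 lower in SGET mPGCLCs.

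Genes called higher at E15.5 against E12.5 numbered 4 with TMM normalization, 11 with DESeq2, 6 with only the 2 groups, 0 without the filter on low counts, 4 when the first 36 nt were matched and 0 to 7 with 1 library left out. Against E13.5 they numbered 3 with each of TMM normalization, DESeq2 and only the 2 groups, 2 when either strand was matched, and 0 to 8 with 1 library left out. DESeq2 called 2 genes lower in both comparisons, and the fit of only the 2 groups called 34 lower against E13.5 and 159 lower against E12.5. At E13.5 against E12.5 DESeq2 called 2 higher. In SGET mPGCLCs 0 genes were higher with TMM normalization, without the filter, and with any library left out, 13 with DESeq2 and 6 with only the 2 groups, while 10 were lower with DESeq2 and 17 with only the 2 groups.

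No label pairs the same-numbered libraries, although all mPGC replicate 2 libraries listed 0 reads beginning with N. Deviations of gene counts correlated at 0.12 to 0.19 between mPGC stages and at 0.05 between E12.5 and SGET libraries, over 507 genes, and those of the 24 long classes at -0.40 to 0.81. With the replicate block, genes called higher numbered 1 at E13.5 against E12.5, 2 at E15.5 against E13.5 and 5 at E15.5 against E12.5, and genes called lower 9 at E15.5 against E13.5, 79 at E15.5 against E12.5 and 1 in SGET mPGCLCs. For the 43-nt share the paired ratio was 0.618 for E13.5 over E12.5.

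Depth differed by 3.57 times between libraries, and with 2 libraries per group no exact test can pass.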
